A study of Mus musculus with 45 samples.

Results

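Cluster C5 is one of the clusters that the authors assigned to single nuclei of Ter119+ erythroblasts, the nucleated precursors of red cells that carry the surface protein Ter119. Its members were the nuclei listed as C5 in the deposited table of nuclei, 2326 of 34073 in all. The authors had put 2305 of them in the class Int, read here as intermediate, and 21 in the class Late, and all 21 came from KO libraries. The nuclei came from mice with an intact (WT) or a deleted (KO) Stag2 gene, sampled when 6 to 8 weeks had passed since pIpC was last given, a compound that switches on an inducible deletion and that both genotypes had received. The recombinase driver, the age and the sex of the mice are not given in the sources used here. Each genotype was represented by 3 chromatin accessibility (ATAC) libraries of 10x Genomics multiome preparations, 6 of the 45 samples of the series. The labels number the libraries as replicates and do not say whether they came from separate mice, so p-values measure the spread between these libraries, which may be technical. The nuclei of cluster C5 were set against the other Int nuclei and against the Late nuclei of the same libraries, each genotype on its own, and then between genotypes.

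Erythroblasts mature from large dividing cells to small cells with condensed nuclei, which are finally expelled. Gata1 and Klf1 are the transcription factors that drive the globin, heme and membrane genes as erythroblasts mature, and Tfrc, the transferrin receptor, brings in the iron that heme needs. Genes of the progenitor stage and of the cell cycle close as cells mature, while genes for late steps, such as nuclear export and loss of organelles, open. Cohesin is a ring-shaped complex that shapes chromatin loops and ties sister chromatids, and Stag2 is one of its subunits. The values below are gene scores, a summary of the ATAC signal at a gene whose formula is not given in the sources used here. They measure accessibility and not expression, and neighbouring genes may share fragments. For each library the scores of its nuclei were averaged and scaled to a sum of 1000000 per library, and differences are on the log2 scale after 1 was added to each score.

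Of C5, C6, C8, C9, C10 and C11, the clusters with most of the Int nuclei, C5 was the one with more than 100 nuclei of each genotype. It held 628 WT and 1698 KO nuclei, whereas C6 held 2834 WT and 38 KO, C9 held 1835 and 18, C11 held 3607 and 2, C8 held 12 and 2020, and C10 held 2 and 2972. In WT replicates 1, 2 and 3 there were 143, 224 and 261 nuclei of C5, which is 2.08%, 3.85% and 3.73% of all nuclei. In KO replicates 1, 2 and 3 there were 528, 598 and 572, which is 10.9%, 13.0% and 11.6%. Every KO library lay above every WT library, with 3.22% ± 0.988 for WT and 11.8% ± 1.05 for KO (SD, n = 3; p = 0.1 in a two-sided exact permutation test, the lowest p that 3 against 3 can give). As a share of Int nuclei the values were 6.40%, 8.74% and 6.53% in WT and 21.9%, 28.9% and 23.6% in KO. The Wilson 95% intervals of the shares, which cover counting error only, ran from 1.77% to 4.37% over the WT libraries and from 10.0% to 14.0% over the KO libraries. Of the barcodes of C5, 101 of 2326 (4.34%) occurred in another library too, as did 1478 of 34073 (4.34%) of all barcodes.

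The nuclei of C5 were shallow. Their median number of ATAC fragments was 3909, 4163 and 4061 over the WT replicates and 5033.5, 4940 and 4745 over the KO replicates. The other Int nuclei of the same libraries had 2.64 to 3.71 times as many, and the Late nuclei 1.20 to 1.74 times as many. The KO medians of C5 were all above the WT medians (4044 ± 128 in WT and 4906 ± 147 in KO, SD, n = 3; p = 0.1 in a two-sided exact permutation test, 0.5 adjusted over 5 quality measures). Enrichment at start sites (30.5 ± 2.405 in WT and 31.7 ± 0.339 in KO) and the percent of fragment ends in peaks (57.5 ± 3.91 and 56.0 ± 1.15) overlapped between the genotypes, with exact permutation p of 0.5 and 0.8. The median percent of fragment ends in peaks was lower in C5 than in Late nuclei in all 6 libraries. It was 53.9% to 61.7% against 64.1% to 66.4% in WT and 55.1% to 57.3% against 60.3% to 61.8% in KO. The part of this gap in the comparisons with Late nuclei was not tested. Among Int nuclei under 5000 fragments, C5 made up 22.1%, 28.9% and 15.7% in WT and 83.0%, 88.5% and 82.7% in KO. Above 5000 fragments it made up 3.13% to 4.65% in WT and 12.7% to 17.0% in KO, so its share was larger in KO on both sides of that depth. Most of the remaining shallow WT nuclei were in C6, with 240 of 384, 233 of 433 and 757 of 954 of the Int nuclei under 5000 fragments. The share of C5 nuclei with a doublet score above 0 was 0% to 0.699% in WT and 6.47% to 12.9% in KO, below the 10.9% to 22.2% and 29.2% to 53.3% of the other Int nuclei. In total C5 held 659367, 1086352 and 1207140 fragments in WT and 3096399, 3375903 and 3094494 in KO, so its WT values are the less precise ones. Because of the gap in depth, the comparison with other Int nuclei was repeated on pairs of a C5 and an other Int nucleus of one library within 10% in fragments, which gave 142, 224 and 261 pairs in WT and 272, 239 and 284 in KO. The pairs held nearly all WT nuclei of C5 but fewer of the shallow ones in KO, with C5 medians of 3955.5, 4163 and 4061 fragments in WT and 8210, 8717 and 7706.5 in KO. The pairs thus match C5 to other Int nuclei and not KO to WT, between which they widen the gap in depth. They match the number of fragments only. In all 6 libraries the paired C5 nuclei had lower medians of enrichment at start sites (28.2 to 33.0, against 32.5 to 37.8 in their other Int partners) and of the percent of fragment ends in peaks (53.8% to 61.7%, against 55.7% to 63.9%). Doublet scores above 0 were found in 7.39% to 12.9% of the paired C5 nuclei in KO and in 34.2% to 41.9% of their partners. The part of depth in the results was not tested beyond this.

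**Figure D1:**
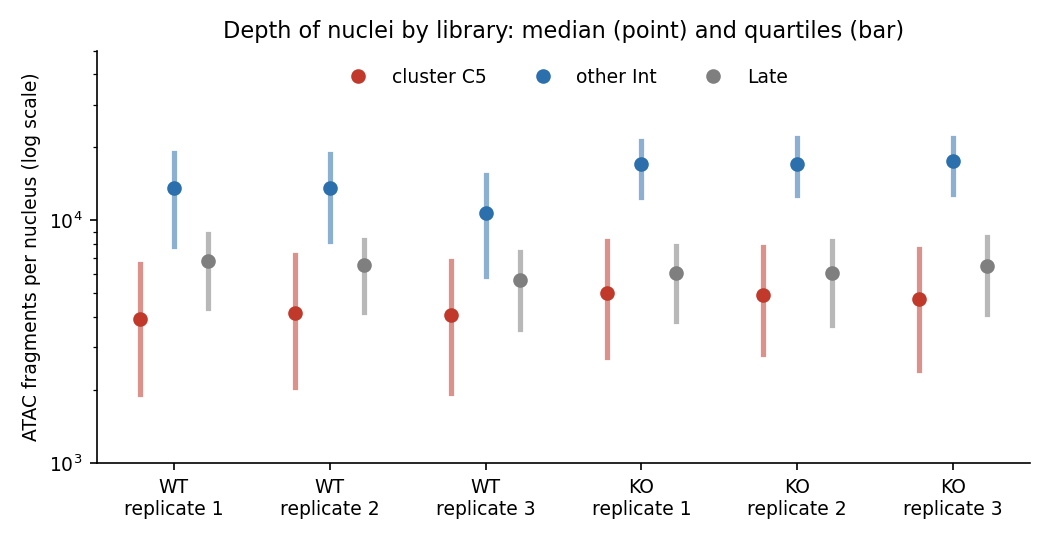
ATAC fragments per nucleus on a log axis for cluster C5, the other Int and the Late nuclei in each of the 6 libraries, with the median as a point and the quartiles as a bar. The medians of C5 lie between 3909 and 5033.5, below those of both other kinds in every library.

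Nuclei of C5 were accessible at the erythroblast markers. Klf1 (chr8:84901928-84905295, plus strand) scored 266, 298 and 325 in the WT nuclei of C5, in the order of replicates 1, 2 and 3 kept throughout, and 238, 237 and 283 in the KO nuclei. The Late nuclei of the same libraries had 231, 223 and 212 and 178, 189 and 199, and C5 was above Late in each of the 6 libraries. Gata1 (chrX:7959260-7976574, minus strand) had 92.3, 81.5 and 88.5 in WT and 71.1, 83.8 and 88.9 in KO, against 74.3, 74.3 and 72.7 and 61.7, 63.7 and 69.2 in Late nuclei, again higher in C5 in all 6. Tfrc (chr16:32608896-32632794, plus strand) had 194, 167 and 189 and 159.8, 162 and 176 in C5, and the Late nuclei had 187, 173 and 177 and 140.1, 140.2 and 145, higher in C5 in 3 of 3 KO libraries, while the WT values interleaved. Against the other Int nuclei Tfrc was higher in C5 in all 6 libraries, by 0.13 ± 0.079 in WT and 0.20 ± 0.054 in KO on the log2 scale (SD, n = 3). Of the 12 genes of iron uptake and export, 3 were higher and 2 lower in C5 in 3 of 3 WT libraries, against 13.9% and 21.6% of all genes. In KO 4 were higher and 2 lower, against 13.6% and 31.9%. The list had medians of -0.013 and 0.024. None of these 3 markers of erythroblasts was near 0 in any library of C5.

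Markers of other blood cells were not absent from C5. The summed score of the myeloid list, which holds granule and receptor genes such as Mpo and Csf1r, was 234 to 340.3 over the WT and 289 to 353 over the KO libraries of C5, against 286 to 307 and 329.9 to 347 in the other Int nuclei. The B cell list summed to 128 to 167 and 153 to 185 in C5, to 129 to 158 and 169 to 182 in the other Int nuclei and to 85.5 to 96.9 and 117 to 123 in Late nuclei. The T and NK cell list summed to 138 to 189.6 and 169 to 197 in C5, against 149.7 to 177 and 192 to 200.4 in the other Int nuclei. The macrophage list summed to 269 to 403 and 348 to 361 in C5 and to 316 to 328 and 310.5 to 324 in the other Int nuclei, higher in C5 in KO with no overlap, although 3 of 9 measured genes were higher in 3 of 3 KO libraries, as were 13.6% of all genes, and the median was -0.034. The mast cell and basophil list summed to 74.3 to 98.6 and 88.5 to 95.2 in C5 and to 63.1 to 86.9 and 112 to 122 in the other Int nuclei, lower in C5 in KO with no overlap. In KO all 4 measured genes of this last list were lower in C5 in 3 of 3 libraries, as were 31.9% of all genes, and their median was -0.45 against -0.078 for all genes. The megakaryocyte list, whose lineage shares a progenitor with red cells, summed to 354 to 423 and 341 to 387 in C5, 311 to 354 and 360.4 to 383 in other Int and 267 to 312 and 314 to 329 in Late nuclei. The mast cell and basophil list summed to 47.3 to 50.1 and 68.8 to 69.0 in Late nuclei, the macrophage list to 318 to 348 and 331 to 348, the myeloid list to 347 to 368 and 359 to 389.7 and the T and NK cell list to 152 to 165 and 190.3 to 196. The B cell, megakaryocyte and mast cell sums of C5 were above those of Late nuclei in both genotypes with no overlap, and the part of these markers in the results was not tested. Late nuclei also had the larger share of fragment ends in peaks in every library, and its part in these sums was not tested. Defining markers at 0 in a WT library of C5 were Pf4, Ppbp, C1qc, Cd79b, Nkg7 and Mcpt8, and none was at 0 in a KO library. 

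Set against Late nuclei of the same library, C5 was more accessible at most listed replication and progenitor-stage genes and less accessible at most listed late-stage erythroid and globin genes. In WT, 36.9% of 17175 genes were higher in C5 in 3 of 3 libraries and 26.6% were lower, and in KO 42.3% and 29.2% of 18223. These shares are the background of the counts below, and since the clusters were formed from these nuclei the differences are described without a test. Mean differences of 1 or more on the log2 scale with the same sign in 3 libraries were found for 422 genes higher (4.21%) and 166 lower (1.65%) in WT, and for 178 higher (1.7%) and 70 lower (0.67%) in KO. Both genotypes shared their leading gene on the lower side, Xpo7, and had Hist1h4k and 1700123M08Rik among the leading genes on the higher side.

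Hist1h4k (chr13:21750145-21750553, minus strand), a gene for the core histone H4 that is read in S phase, had scores of 289, 285 and 306 in WT and 221, 237 and 229.7 in KO nuclei of C5. Late nuclei had 61.3, 52.4 and 52.8 and 60.7, 51.4 and 55.7, far from any C5 value. The difference was 2.38 ± 0.15 (SD, n = 3) in WT and 2.02 ± 0.17 in KO, and 9 tested genes lie within 100 kb of it in its histone cluster. Tfdp1, the partner of the E2F factors that drive entry into S phase, had 48.2, 44.8 and 66.8 in WT and 70.8, 67.2 and 65.1 in KO, against 14.6, 16.0 and 15.4 and 16.6, 15.6 and 15.4 in Late nuclei. Its differences were 1.71 ± 0.31 and 2.03 ± 0.017, with no overlap in either genotype. Samd1, which binds unmethylated CpG islands, differed by 1.52 ± 0.14 in WT and 1.80 ± 0.12 in KO. Ephb1, a receptor of ephrin ligands, had 64.5, 79.3 and 54.8 in WT C5 against 13.5, 11.6 and 10.5 in Late, a difference of 2.38 ± 0.26. In KO its C5 scores were lower, at 41.3, 39.8 and 46.1, and its difference was 1.21 ± 0.11. The other leading genes on this side were 1700123M08Rik, with 2.197 ± 0.31 in WT and 2.05 ± 0.10 in KO, and Gfod1, with 2.13 ± 0.14 and 1.75 ± 0.11.

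Xpo7 (chr14:70654246-70766628, minus strand), a nuclear export receptor that acts when erythroblasts condense their nuclei, had scores of 49.0, 53.6 and 54.1 in WT and 50.7, 69.5 and 60.5 in KO nuclei of C5. In Late nuclei it had 289, 323 and 335 and 338, 329.8 and 350.5. The difference was -2.57 ± 0.034 (SD, n = 3) in WT and -2.49 ± 0.24 in KO, and no C5 library came near a Late library. Tmcc2, a coiled-coil membrane protein gene, had 282, 180.0 and 225 and 209.9, 216 and 232 in C5 and 695, 658 and 704 and 698, 709 and 719 in Late nuclei. Tbcel, which encodes a regulator of tubulin, differed by -2.28 ± 0.19 in WT and -1.65 ± 0.09 in KO, and Tmem131l by -1.75 ± 0.26 and -1.77 ± 0.038. Fam229a differed by -2.26 ± 0.81 and -2.40 ± 0.55 and Zfp874a by -2.45 ± 0.78 and -1.497 ± 0.015, both with low scores in C5 and a wide spread over the WT libraries.

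**Figure D2:**
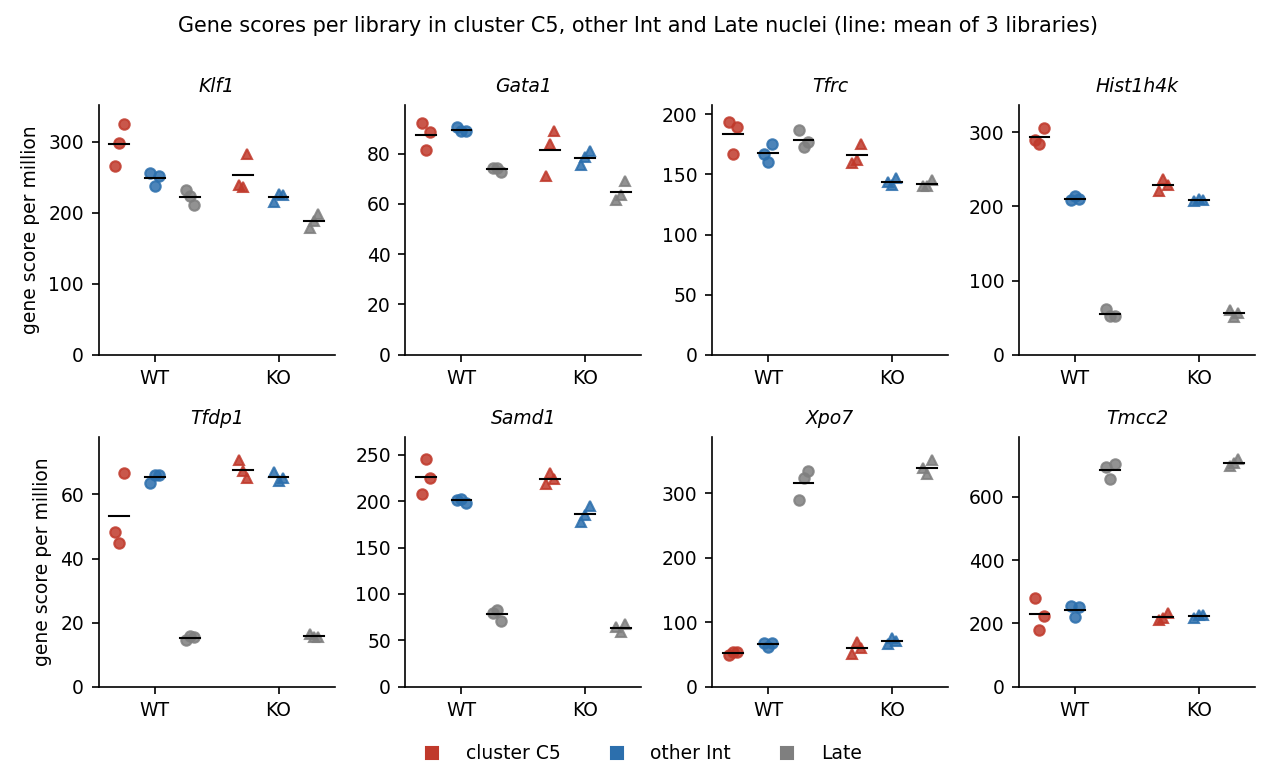
Gene scores per library (vertical axis, scaled to a sum of 1000000) for 8 genes in cluster C5, the other Int and the Late nuclei of WT (circles) and KO (triangles), with a line at the mean of 3 libraries. C5 lies beside the other Int nuclei and apart from Late nuclei at Hist1h4k, Tfdp1, Samd1, Xpo7 and Tmcc2.

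For C5 less Late nuclei, the median over all genes measured was 0.084 in WT and 0.087 in KO. Of the progenitor-stage genes, 10 of 14 were higher in C5 than in Late nuclei in 3 of 3 WT libraries and 11 of 15 in KO, with medians of 0.69 and 0.50. Myc, a driver of growth and division, differed by 1.92 ± 0.28 in WT and 0.77 ± 0.12 in KO, while Runx1 was lower in C5, by -0.41 ± 0.067 and -0.54 ± 0.086. Of the DNA replication genes, 12 of 16 were higher in WT and 13 of 16 in KO (medians 0.48 and 0.36). They were led by Pola1, the polymerase subunit of the DNA polymerase alpha and primase complex (1.31 ± 0.15 and 0.94 ± 0.029), and Rrm1, which makes deoxynucleotides (1.01 ± 0.19 and 0.85 ± 0.15). Of the erythroid transcription factors, 10 of 15 were higher in WT and 10 of 15 in KO (medians 0.24 and 0.26), and the repressor gene Gfi1b differed most, by 1.14 ± 0.16 and 0.98 ± 0.25. Of the same list, 4 of 15 went the other way in WT and 3 of 15 in KO. They included Foxo3, a factor of late maturation, with -0.52 ± 0.12 and -0.54 ± 0.073. E2f2 was among them in WT, at -0.62 ± 0.20, and Lmo2 in KO, at -0.46 ± 0.19. Of the mitosis genes, 2 of 14 were higher and 5 of 14 lower in WT, and 5 of 14 higher and 3 of 14 lower in KO (medians -0.089 and 0.059), with Cdk1, the kinase of mitotic entry, at 0.90 ± 0.22 and 0.93 ± 0.088 and Bub1 at -0.82 ± 0.16 and -0.30 ± 0.26.

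Of the late-stage erythroid genes, 14 of 18 were lower in C5 than in Late nuclei in 3 of 3 WT libraries and 15 of 18 in KO, with medians of -0.48 and -0.30. Besides Xpo7 they included Bpgm, which makes the regulator of hemoglobin oxygen binding (-0.85 ± 0.14 in WT and -0.97 ± 0.13 in KO), and Ube2o, a ubiquitin ligase that clears proteins in maturing cells (-0.999 ± 0.12 and -0.96 ± 0.12). Hemgn, a nuclear protein gene of erythroid cells, went the other way, higher in C5 by 0.75 ± 0.025 and 1.02 ± 0.068. It was the 1 gene of the list higher in 3 of 3 WT libraries, and 3 genes were in KO, among them Ubac1, a gene of a ubiquitin ligase complex, at 0.29 ± 0.021. Of the globin genes, 5 of 8 were lower in WT and 6 of 8 in KO, none was higher in all 3 libraries of a genotype, and the medians were -0.60 and -0.56. The alpha globin gene Hba-a1 differed by -0.58 ± 0.22 and -0.62 ± 0.13, and the beta globin gene Hbb-bs by -0.19 ± 0.22 and -0.35 ± 0.075. The 2 alpha globin genes are near-identical, so their scores cannot be fully separated. The heme synthesis list had medians of -0.26 and -0.15. In the list of erythropoietin and STAT5 signalling, Bcl2l1, a survival gene of erythroblasts, was lower in C5 by -1.10 ± 0.09 and -0.97 ± 0.04, and Sh2b3, an inhibitor of JAK2, was higher by 1.03 ± 0.36 and 0.77 ± 0.15. Of the interferon response genes, 7 of 13 were lower and 4 of 13 higher in WT and 8 of 15 lower and 1 of 15 higher in KO, with medians of -0.26 and -0.27. Oasl2 was at -0.89 ± 0.55 and -1.17 ± 0.26, and the GTPase gene Gbp7 at 0.97 ± 0.34 and 0.50 ± 0.30.

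**Figure D3:**
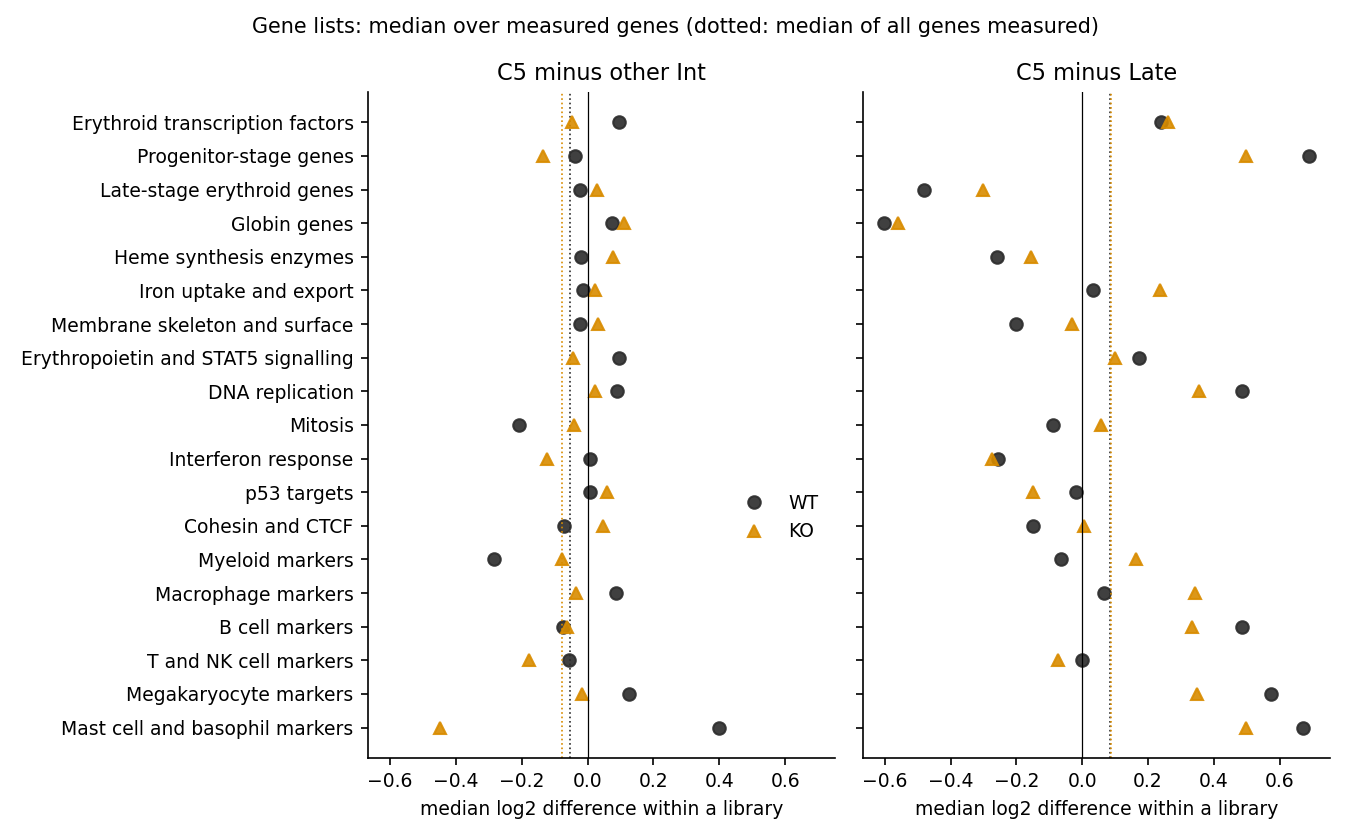
Median log2 difference of cluster C5 from the other Int nuclei (left) and from Late nuclei (right) over the measured genes of each of 19 lists, as the mean over 3 libraries, for WT (circles) and KO (triangles), with dotted lines at the median of all genes. Most lists lie nearer 0 on the left than on the right, where progenitor-stage and replication genes are above 0 and globin and late-stage genes below.

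Against the other Int nuclei the differences of C5 were small, and the leading genes differed between WT and KO. Among genes with a mean score of at least 20 and the same sign in all 3 libraries, none was higher in C5 by a mean of 1 or more on the log2 scale, in WT or in KO. In WT, 8 genes were lower by a mean of 1 or more (0.0768% of 10420), and in KO none of 10911. Bcam, a surface protein gene of the membrane list below that minimum score, had 12.8, 17.5 and 11.6 in WT nuclei of C5 and 6.06, 5.16 and 4.56 in the other Int nuclei, a difference of 1.24 ± 0.31 in WT and 0.032 ± 0.39 in KO. In any size, 13.9% of genes were higher and 21.6% lower in 3 of 3 WT libraries, and 13.6% and 31.9% in 3 of 3 KO libraries. The median absolute difference over genes was 0.20 in WT and 0.14 in KO, against 0.34 and 0.25 from Late nuclei. In the pairs it was 0.25 in WT and 0.16 in KO.

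In WT the leading genes on the higher side were Gm6313, with 74.2, 77.1 and 67.6 in C5 and 45.01, 40.8 and 32.4 in other Int nuclei, and Mir21c, Mir6940 and Astn1. Gm6313 differed by 0.88 ± 0.17 (SD, n = 3) in all Int nuclei and by 1.22 ± 0.25 in pairs. Mir21c differed by 0.92 ± 0.30, while Mir6940 (0.91 ± 0.89) and Astn1 (0.88 ± 0.73) were highest in WT replicate 1, where C5 had 58.9 and 46.9. On the lower side Pqlc3, a membrane protein gene, had 23.2, 15.4 and 18.8 in C5 and 46.5, 47.9 and 55.6 in other Int nuclei, with no overlap. Its difference was -1.36 ± 0.33 in WT and -0.064 ± 0.11 in KO, and -1.16 and -0.12 in pairs. Mir486, a microRNA gene within the ankyrin gene Ank1, had 21.7, 12.2 and 15.6 against 35.4, 39.5 and 33.9, a difference of -1.12 ± 0.47 in WT and -0.15 ± 0.23 in KO. Mir671 was listed at 0 in WT replicate 1 of C5, where C5 has 143 nuclei, and at 22.6 and 18.6 in the others. Dnajc28 differed by -1.11 ± 0.85, again with its lowest value in WT replicate 1.

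In KO the leading genes on the higher side were Gtpbp4, a GTP-binding protein of ribosome assembly, Wipi1, an autophagy protein gene, and the mitochondrial carrier genes Slc25a41 and Ucp3. Gtpbp4 had 213, 196 and 232 in C5 and 136, 136 and 141 in other Int nuclei, a difference of 0.63 ± 0.091 (SD, n = 3). In the pairs, which hold fewer of the shallow KO nuclei of C5, that difference was -0.026. For Slc25a41 the difference went from 0.50 ± 0.049 to -0.011 in pairs. Wipi1 (0.50 ± 0.10) and Ucp3 (0.46 ± 0.056) kept 0.24 and 0.25 in pairs. In WT the differences of these genes were 0.38 for Gtpbp4, 0.44 for Wipi1, 0.37 for Slc25a41 and 0.20 for Ucp3. On the lower side the leading genes were Tmem223, with 19.0, 14.6 and 12.7 in C5 and 27.3, 22.9 and 26.6 in other Int nuclei, and Gpr3, 2210409E12Rik and Nkx6-3. Nkx6-3, a homeobox gene, differed by -0.67 ± 0.13 and by -0.21 in pairs. Gpr3 had its lowest KO score, 8.80, in replicate 2, and its difference of -0.69 ± 0.75 was 0.035 in pairs.

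Between C5 and the other Int nuclei the medians of all genes were -0.053 in WT and -0.078 in KO. Globin genes had medians of 0.075 and 0.11, late-stage erythroid genes -0.022 and 0.03, and replication genes 0.09 and 0.021. In KO, 8 of 18 membrane skeleton and surface genes, 5 of 7 heme synthesis genes and 7 of 18 late-stage erythroid genes were higher in C5 in 3 of 3 libraries, against 13.6% of all genes, and 1 of 18, 0 of 7 and 3 of 18 were lower, against 31.9%. In WT the same lists had 4 of 18, 2 of 7 and 4 of 18 higher, against 13.9%, and 2 of 18, 1 of 7 and 2 of 18 lower, against 21.6%. Of the mitosis genes, 8 of 14 were lower and 1 of 14 higher in 3 of 3 WT libraries, at backgrounds of 21.6% and 13.9%, and 7 of 14 were lower and 4 of 14 higher in KO, at backgrounds of 31.9% and 13.6% (medians -0.21 and -0.04), with the checkpoint kinase gene Bub1 at -0.84 ± 0.27 and -0.38 ± 0.34. Of the progenitor-stage genes, 8 of 15 were lower in 3 of 3 KO libraries (median -0.14), with Myb, a factor of proliferating progenitors, at -0.52 ± 0.10. In WT, 3 of 15 were lower. Kit, the stem cell factor receptor, had 5.17, 17.5 and 8.31 in WT and 15.4, 15.1 and 9.13 in KO nuclei of C5, and 14.5, 17.6 and 14.5 and 15.5, 16.0 and 15.5 in the other Int nuclei, so that C5 was the lower one in each of the 6 libraries, by little in WT replicate 2 and KO replicates 1 and 2 and by more in the others. Myc differed by 0.61 ± 0.21 in WT and -0.36 ± 0.19 in KO. Among single clusters, the median absolute difference of C5 was 0.22 from C11, 0.23 from C9 and 0.24 from C6 in WT, and 0.13 from C10 and 0.20 from C8 in KO. The deeper and the shallower nuclei of C5 itself, split at the median depth of each library, differed by a median of 0.34 in WT and 0.17 in KO. These medians hold sampling error, which is larger with the fewer nuclei of WT.

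The KO effect was then tested within C5, with the library as the replicate. The nuclei had been placed in C5 by their accessibility, which the test reads again. Stag2 itself (X chromosome) had scores of 63.0, 59.4 and 53.1 in WT and 62.6, 64.5 and 63.9 in KO nuclei of C5, with overlap, and a log2 fold change of 0.12 with an SE of 0.13 (adjusted p = 0.755). A single score for a gene cannot reveal a deleted exon, so it is no check of the labels. In C5, 173 of 19438 genes (0.89%) passed the threshold of an adjusted p of 0.05 in limma, 80 higher (0.412%) and 93 lower (0.478%) in KO, or 48 and 91 when each library was centred on its median. The calls lay in 67 and 79 loci when genes within 100 kb were joined. At each of the 173 all KO libraries were above or all below the WT libraries, and of all tested genes 11.7% lay wholly higher and 7.89% wholly lower in KO. Of the 80 higher genes 42 had a log2 fold change of 1 or more, and of the 93 lower genes 26 had one of -1 or less. The count moved with the libraries and the variance model. It was 8, 26 and 10 without KO replicate 1, 2 or 3, 329 without WT replicate 1, 16 without a filter on low scores and 1 without the variance trend. It was 97 without the 10% of nuclei with the highest doublet scores, 94 in the nuclei of the pairs, whose KO nuclei are deeper, and 280 with library weights. Only 1, 0 and 1 nuclei of C5 had a doublet score above 0 in WT replicates 1, 2 and 3. Most WT nuclei left out for their score were thus tied at 0 and taken in the order of their barcodes. The count of 97 therefore does not separate doublets from the loss of nuclei.

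The gene with the largest change was Gmpr (chr13:45507444-45546386, plus strand), which encodes a reductase that returns GMP to IMP. Its scores in C5 were 10.6, 8.52 and 6.87 in WT and 69.5, 80.3 and 70.9 in KO, so that every KO library stood several times above every WT library. Its log2 fold change was 2.96 with an SE of 0.21 (adjusted p = 9.18e-05), and it remained past the threshold under all 19 alternatives. No other tested gene lies within 100 kb of it. A group of apolipoprotein L genes on chromosome 15 followed. Apol11a had 4.68, 17.1 and 5.57 in WT and 62.4, 54.1 and 57.5 in KO, with a log2 fold change of 2.75 with an SE of 0.36 (adjusted p = 0.00562), and Apol11b had 2.24 with an SE of 0.30 (adjusted p = 0.00666). The promoter windows of Apol11a and Apol11b are near-identical, so their scores may not be fully separate. Cdkn1a, which encodes the cell cycle inhibitor p21, had 21.3, 22.3 and 23.5 in WT and 73.7, 74.3 and 82.4 in KO, with a narrow spread in both groups and a log2 fold change of 1.74 with an SE of 0.15 (adjusted p = 0.000397). Erfe, the hormone by which erythroblasts lower hepcidin, had 37.2, 31.1 and 37.1 and 92.8, 99.3 and 112 and rose by 1.502 with an SE of 0.14 (adjusted p = 0.000534) on the log2 scale. It was named after its values were seen. Irf1, a transcription factor of the interferon response, had 12.5, 15.5 and 8.42 and 38.4, 38.8 and 29.0, with a log2 fold change of 1.49 with an SE of 0.25 (adjusted p = 0.0221). Gata2, the GATA factor of progenitors that Gata1 replaces, had 19.8, 19.0 and 21.4 and 41.1, 43.0 and 42.8, with a log2 fold change of 1.04 with an SE of 0.17 (adjusted p = 0.0199). Other leading genes on this side included 9930012K11Rik at 2.34, Lexm at 1.95, Fam110a at 1.89 and the microRNA gene Mir802 at 1.86. The score at Mir802 measures the chromatin around the hairpin gene, not the level of the microRNA.

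Among the genes lower in KO, Cnn3, an actin-binding calponin gene, had the largest fold change, with scores of 33.0, 21.1 and 12.8 in WT and 4.34, 4.34 and 3.44 in KO nuclei of C5. Its log2 fold change was -2.12 with an SE of 0.37 (adjusted p = 0.0242), from WT values that differed widely among themselves. Pdgfd (chr9:6168612-6377519, plus strand), a growth factor gene, had 43.7, 39.6 and 31.9 and 11.6, 10.5 and 10.2, with a log2 fold change of -1.73 with an SE of 0.22 (adjusted p = 0.00493). Rnase6 (chr14:51129064-51131122, plus strand), which encodes a secreted ribonuclease, had 141, 139.8 and 155 in WT and 51.7, 56.5 and 64.1 in KO, with tight groups, and changed by -1.33 with an SE of 0.12 (adjusted p = 0.000534). It lies beside Rnase1, which also passed the threshold at -1.19, and their scores may share fragments. Myc had 67.3, 87.2 and 59.9 and 32.9, 27.9 and 37.7, with a log2 fold change of -1.09 with an SE of 0.18 (adjusted p = 0.0180). Gpc4, a cell surface proteoglycan gene, changed by -1.72, Gnat2, a transducin subunit gene, by -1.65, and Hbegf, a growth factor gene of the EGF family, by -1.62. Taar7b, an amine receptor gene, was at -1.59 and Gfra4, a receptor gene of the GDNF family, at -1.36. Rnase6 remained past the threshold under 18 of 19 alternatives and Pdgfd under 16 of 19, while Gata2 did under 12 of 19, Fam110a under 8 of 19, Gfra4 under 8 of 18 and Taar7b under 7 of 18. With nuclei weighted by their fragments Gfra4 was at -0.88 (adjusted p = 0.101 in limma).

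**Figure D4:**
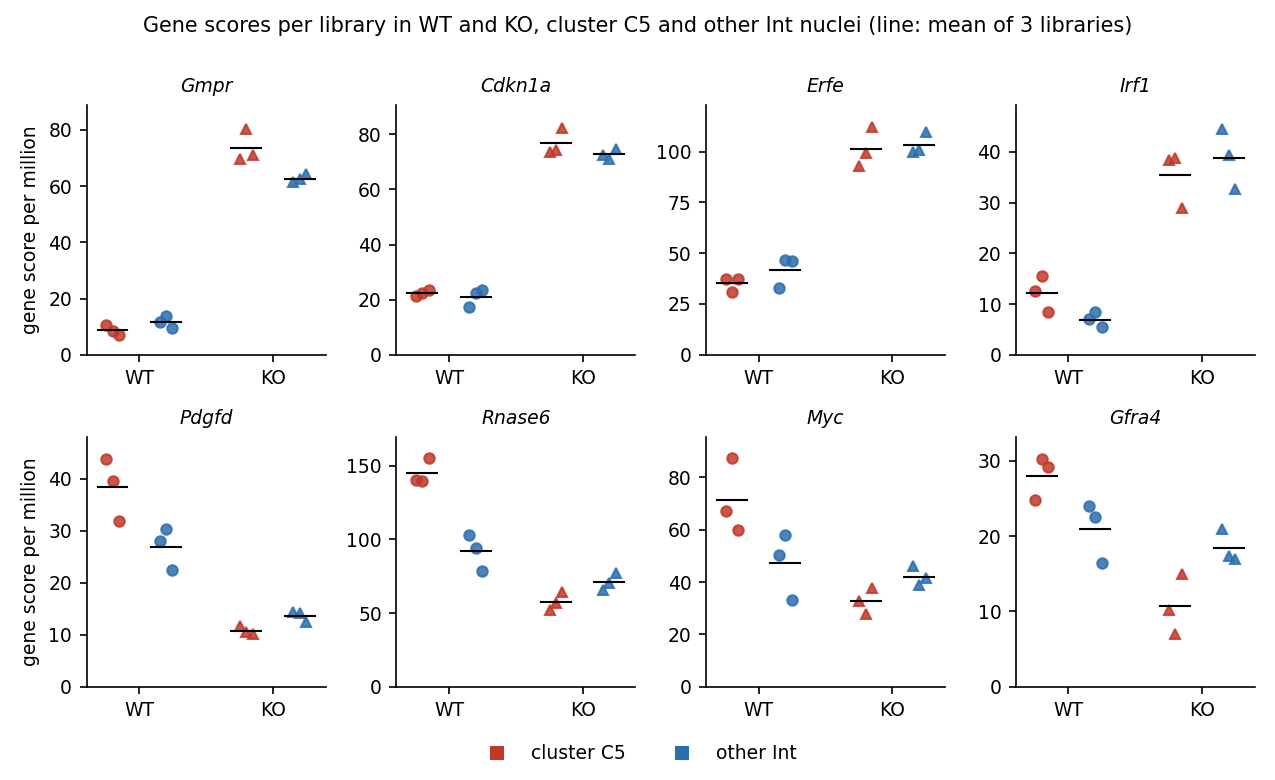
Gene scores per library (vertical axis, scaled to a sum of 1000000) for 8 genes in WT (circles) and KO (triangles), in cluster C5 and in the other Int nuclei, with a line at the mean of 3 libraries. At Gmpr, Cdkn1a and Erfe KO lies above WT in both kinds of nuclei, while Myc and Gfra4 show a gap between WT and KO in C5.

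In C5, 14 of 19 lists had no member past the threshold, at a background of 0.89% of genes. The exceptions were Gata2 and Myc among the progenitor-stage genes, Irf1 among 15 interferon response genes, Cdkn1a among 11 p53 targets, Itga2b among 8 megakaryocyte markers and Gata2 again among 4 mast cell and basophil markers. Itga2b, an integrin gene of platelets and progenitors, had 46.1, 52.96 and 39.5 in WT and 79.9, 91.1 and 73.0 in KO, with a log2 fold change of 0.81 with an SE of 0.15 (adjusted p = 0.0337). Over all tested genes of C5 the median was 0.066. The erythroid transcription factors had a median of -0.25 in C5 and -0.17 in the other Int nuclei, with 0 of 15 and 10 of 15 past the threshold, all 10 lower, at backgrounds of 0.478% and 8.66% of genes lower. In the fewer other Int nuclei paired with C5 the median was -0.22 and 0 of 15 passed, so the 0 and the 10 do not show a difference between the kinds of nuclei. Of the 13 genes of erythropoietin and STAT5 signalling none passed in C5 (median 0.012). In the other Int nuclei 6 higher and 2 lower passed (median 0.23), at backgrounds of 15.9% and 8.66% of genes. In those of the pairs 4 higher passed (median 0.33), where 225 of all 18820 genes tested were higher. The difference between the kinds of nuclei was not tested for the list. For Klf1 the log2 fold change was -0.23 with an SE of 0.11 (adjusted p = 0.375) in C5 and -0.16 in the other Int nuclei, and for Gata1 -0.11 with an SE of 0.13 (adjusted p = 0.779) and -0.19. Tfrc had -0.14 with an SE of 0.10 (adjusted p = 0.592) and -0.22, and Kit had 0.44 with an SE of 0.40 (adjusted p = 0.693) and 0.019. The value of Kit in C5 was 0.079 without WT replicate 1 and 0.87 without WT replicate 2. Globin genes had medians of -0.19 and -0.20, and interferon response genes 0.075 and 0.23. Markers of myeloid cells had a median of 0.47 in C5 with none of 14 past the threshold, and their part in the genotype differences was not tested.

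Outside C5 the Int nuclei lay mainly in C6, C9 and C11 in WT and in C8 and C10 in KO. Each of these clusters held few nuclei of the other genotype. Median fragments of the other Int nuclei were 10737 to 13575 over the WT and 17102 to 17602.5 over the KO libraries. The part of clusters and depth in the values below was not tested. The other Int nuclei of the same libraries gave 4772 calls of 19468 genes (24.5%) between KO and WT, 15.9% higher and 8.66% lower. That count was 1168 with as many other Int nuclei per library as in C5, 884 higher and 284 lower, and 249 (1.32%) in the pairs, 225 higher and 24 lower, where C5 gave 94 (0.478%) and KO nuclei were deeper than WT nuclei. It was 2844 without KO replicate 1. Because both comparisons use the same libraries, their values are given side by side. At the leading genes higher in KO the values were 2.96 in C5 and 2.35 in other Int nuclei for Gmpr, 2.75 and 2.76 for Apol11a, 1.74 and 1.75 for Cdkn1a, and 1.502 and 1.30 for Erfe. Irf1 changed by 1.49 in C5 and 2.33 in the other Int nuclei. At genes lower in KO the C5 values were the larger ones, with -1.73 and -0.92 for Pdgfd, -1.33 and -0.36 for Rnase6, -1.09 and -0.13 for Myc, -2.12 and -0.60 for Cnn3, and -1.36 and -0.16 for Gfra4. Over the 80 genes higher in C5 the medians were 1.03 in C5 and 0.96 in the other Int nuclei, and over the 93 lower genes -0.85 and -0.34. These genes were chosen on their C5 values, so their medians are a description only.

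The difference of the KO effect between C5 and the other Int nuclei, which mostly lay in different clusters in WT and KO, was tested within libraries. It passed the threshold for 0 of 19466 genes (0%) in limma, with 1843 genes at an unadjusted p under 0.05. For Pdgfd the difference had an unadjusted p of 0.000329, for Myc 0.000717 and for Rnase6 0.000737, each with an adjusted p of 0.418 in limma. Restricted to genes with a mean score of at least 20, the same test called 16 genes, with adjusted p in limma from 0.0444 to 0.0469, all with a log2 fold change in C5 below that in the other Int nuclei. They included Myc, Pdgfd, Rnase6 and Rnase1, whose decrease was the larger in C5, and Irf1, whose increase was the smaller in C5. In the pairs the test was run only at the minimum mean score of 5, where it called 0 of 19341 genes, with 1398 at an unadjusted p under 0.05. With Late nuclei in place of the other Int nuclei, 0 of 17704 genes (0%) passed, with 2281 at an unadjusted p under 0.05. A p that misses the threshold does not show that the effects were equal.

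**Figure D5:**
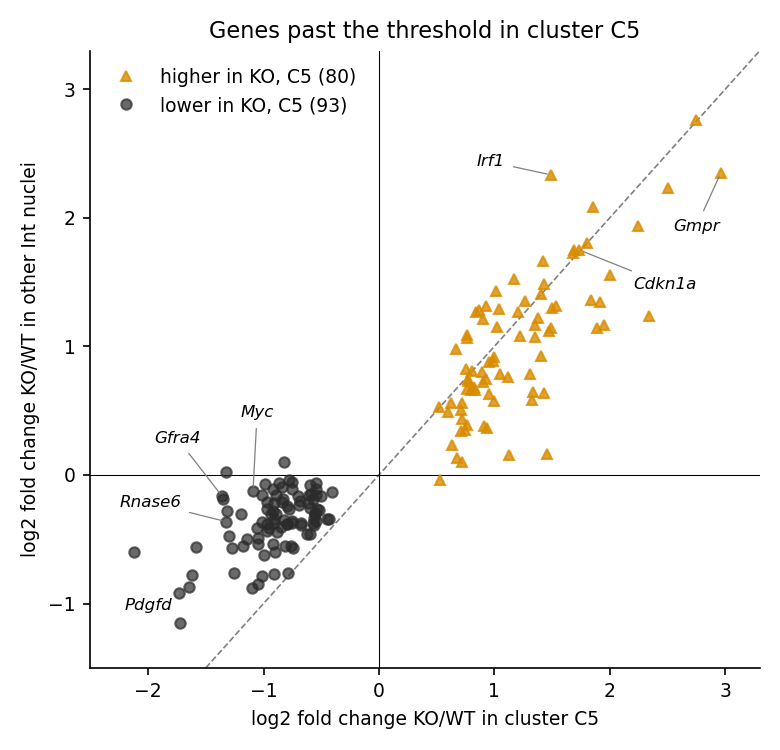
Log2 fold changes of KO against WT in cluster C5 (horizontal axis) and in the other Int nuclei of the same libraries (vertical axis) for the 80 genes higher and the 93 genes lower in C5, with the line of equal values dashed. The genes were chosen on the horizontal axis, and the lower ones sit nearer 0 on the vertical axis.

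The promoters of the called genes were examined for short sequence motifs. RefSeq gave windows on GRCm38.p6 from 250 bases before to 50 after the start, for 60 of the 80 higher and 71 of the 93 lower genes and for 14635 of the 19438 tested genes. The letters AGATAA, which match the motif bound by GATA factors, were sought on both strands and occurred in 16 of the 71 windows of lower genes (22.5%) and in 1 of the 60 of higher genes (1.67%). They occurred in 7.89% of the windows of tested genes, in 11.2% of all 32851 windows, and in 5.71% of the windows of genes lower and 5.76% of genes higher in the other Int nuclei. The letters TTCNNNGAA, a STAT factor motif, occurred in 7 of the 60 higher (11.7%) and 5 of the 71 lower genes (7.04%), and in 7.45% of tested genes and 8.30% of all windows. In the other Int nuclei they occurred in 7.62% of the windows of higher and 6.77% of those of lower genes. The higher genes of C5 with this motif include Apol11a, Apol11b and Apol10a. The windows of Apol11a and Apol11b are near-identical and that of Apol10a is similar, so the 11.7% counts 1 related sequence more than once. CACCC, a motif of Klf factors, occurred in 47 of the 60 (78.3%) and 45 of the 71 (63.4%), and in 61.9% of tested genes and 57.5% of all windows. The median GC content was 60.3% in the windows of higher and 58.0% in those of lower genes of C5, 58.7% in those of tested genes and 63.0% in those of genes lower and 60.3% in those of genes higher in the other Int nuclei. A match of letters is a description and no binding site, and these shares were not tested.

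The windows of 3 lower genes with AGATAA, among those with the largest decreases, are shown first. They are followed by Irf1 and Apol11a, higher genes with TTCNNNGAA, and by Gmpr, the gene with the largest change. Taar7b, at -1.59, also holds AGATAA and is not shown. The RefSeq start used for Pdgfd lies 126 bases from the start of the gene given with its score. Each window runs 5′ to 3′ on the strand of the gene, with AGATAA, TTCNNNGAA and CACCC on either strand in capitals.
Pdgfd (chr9:6168236-6168535, plus strand): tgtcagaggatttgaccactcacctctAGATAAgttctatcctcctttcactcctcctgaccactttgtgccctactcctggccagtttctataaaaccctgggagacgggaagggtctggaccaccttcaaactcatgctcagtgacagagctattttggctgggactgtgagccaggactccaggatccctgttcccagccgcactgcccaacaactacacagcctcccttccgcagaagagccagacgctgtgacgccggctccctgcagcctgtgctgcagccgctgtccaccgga
Gnat2 (chr3:108092816-108093115, plus strand): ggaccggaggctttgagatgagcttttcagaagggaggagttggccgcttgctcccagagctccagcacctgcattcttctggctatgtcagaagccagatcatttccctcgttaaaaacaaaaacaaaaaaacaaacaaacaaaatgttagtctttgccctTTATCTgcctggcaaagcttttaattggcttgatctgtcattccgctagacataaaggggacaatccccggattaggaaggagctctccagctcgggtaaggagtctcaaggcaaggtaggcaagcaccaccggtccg
Rnase1 (chr14:51146718-51147017, minus strand): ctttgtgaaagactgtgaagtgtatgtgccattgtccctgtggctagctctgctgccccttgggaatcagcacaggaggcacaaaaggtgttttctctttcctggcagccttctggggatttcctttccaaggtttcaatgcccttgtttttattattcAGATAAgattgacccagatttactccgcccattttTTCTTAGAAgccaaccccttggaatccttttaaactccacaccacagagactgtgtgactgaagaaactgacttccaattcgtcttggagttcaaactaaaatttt
Irf1 (chr11:53769764-53770063, plus strand): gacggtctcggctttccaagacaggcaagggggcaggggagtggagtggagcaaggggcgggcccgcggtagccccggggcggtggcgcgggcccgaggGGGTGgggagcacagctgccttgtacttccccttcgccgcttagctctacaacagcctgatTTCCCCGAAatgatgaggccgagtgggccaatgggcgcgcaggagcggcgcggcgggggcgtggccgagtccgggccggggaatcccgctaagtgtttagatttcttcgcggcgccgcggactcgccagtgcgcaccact
Apol11a (chr15:77508019-77508318, plus strand): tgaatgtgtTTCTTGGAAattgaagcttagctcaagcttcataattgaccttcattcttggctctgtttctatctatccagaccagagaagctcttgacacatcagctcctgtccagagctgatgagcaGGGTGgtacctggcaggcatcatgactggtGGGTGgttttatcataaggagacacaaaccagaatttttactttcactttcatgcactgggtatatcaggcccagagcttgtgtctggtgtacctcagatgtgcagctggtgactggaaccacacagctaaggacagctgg
Gmpr (chr13:45507194-45507493, plus strand): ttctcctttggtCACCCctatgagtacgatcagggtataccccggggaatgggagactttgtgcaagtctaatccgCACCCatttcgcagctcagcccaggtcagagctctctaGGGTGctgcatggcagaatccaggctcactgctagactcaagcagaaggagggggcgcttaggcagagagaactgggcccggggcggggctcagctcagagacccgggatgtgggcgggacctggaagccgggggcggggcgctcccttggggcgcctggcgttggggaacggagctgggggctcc
The window of Gmpr holds 3 matches to CACCC and neither of the other motifs. For Mir802, whose score was 12.7, 10.2 and 8.69 in WT and 41.4, 37.8 and 42.1 in KO nuclei of C5, the mature sequences in RefSeq are shown with the seed, bases 2 to 8, in capitals.
mmu-miR-802-5p (chr16:93369737-93369758, plus strand): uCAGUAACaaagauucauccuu
mmu-miR-802-3p (chr16:93369775-93369796, plus strand): aCGGAGAGucuuugucacucag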

How the data were processed

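Gene scores were deposited as a signal that the authors scaled to a sum of about 10000 per nucleus, over 24333 genes and 34073 nuclei, per the file headers and values. The deposited nuclei table, present in 2 identical copies, gave each nucleus its library, genotype, cluster and class, the count of ATAC fragments (1000 or more), the nucleosome ratio, the fraction of fragment ends in promoters (not used) and the doublet score as the authors computed them. mm10 and Cell Ranger are named in the submitters' processing notes. The gene score model and the clustering and doublet steps are not given in the sources used here, and no nucleus was removed. Scores were averaged per library and kind of nuclei, rescaled to a sum of 1000000 and taken as log2 of the score plus 1. Genes with a mean under 5 were left out of the tests. Differences within a library were averaged over 3 libraries and given with no test. KO and WT were compared with limma 3.58.1 (R 4.3.3, variance trend, Benjamini-Hochberg threshold 0.05), with the groups of C5 alone, and the difference of effects on within-library differences. Shares were compared by exact permutation, with Wilson 95% intervals from scipy 1.17.1. On data simulated for KO against WT in C5 over 19438 genes, 47% of changes of 1 and 18% of changes of 0.5 on the log2 scale were recovered. The simulated noise depended on the mean score and the genotype alone and genes were independent, so the rates in the real data may differ. Genes were named by rule. For each comparison within a library these were the 4 highest and the 4 lowest differences with a mean score of at least 20 and 1 sign in 3 libraries, and for KO against WT the 8 highest and 8 lowest called fold changes, skipping neighbours within 100 kb. The markers, Gata2, Kit, Stag2 and the extremes of 19 gene lists were added. The members and the lists were chosen with earlier results of these data known. Pairs of a C5 and an other Int nucleus within 10% in fragments, library weights and the class Int alone were alternatives chosen after seeing the data. The remaining 39 samples were not used here.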

Additional observations from a re-analysis of the deposited data

How the results depend on the processing

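The count of 173 genes between KO and WT in C5 was 97 without the 10% of nuclei with the highest doublet scores, 280 with library weights, 16 without a filter, 1 without the variance trend and 94 in pairs. Most WT nuclei left out for their doublet score were tied at 0 and taken in the order of their barcodes. Leaving out 1 library gave 8 to 329 genes, with 8, 26 and 10 without KO replicate 1, 2 or 3 and 329 without WT replicate 1. With the replicate block it was 205, and 5406 in the other Int nuclei, and the differences of effects kept 0 calls. The labels share replicate numbers, but deviations of WT and KO libraries correlated between -0.0458 and 0.0309 over 19438 genes, with 0.0196, -0.0368 and 0.0148 for equal numbers, so the numbers were not taken as pairs. The other Int count of 4772 was 1168 with equal numbers of nuclei, 249 in pairs and 2844 to 5885 with 1 library left out. The difference of effects between C5 and other Int nuclei was 16 genes at a minimum score of 20. The median absolute difference from other Int nuclei was 0.254 in WT pairs, and in KO 0.128 with 5 added to each score, 0.145 without those nuclei and 0.164 in pairs. From Late nuclei it was 0.315 in WT and 0.235 in KO with 5 added. The KO less WT difference in the percent of fragment ends in peaks ran from -3.24 to 0.636 with 1 library left out, turning to 0.636 without WT replicate 3. In KO pairs Gtpbp4 turned to -0.026, Slc25a41 to -0.011 and Gpr3 to 0.035. Under the alternatives run, Gmpr was past the threshold in 19 of 19, Apol11a in 15 of 19 and Cnn3 in 10 of 18. The cause was not tested. The fragments of WT nuclei, 659367 to 1207140 per library in C5, limit genes with low scores.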
